A study of Mus musculus with 5 samples.

Results

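The genes described here are 10 targets and mediators of bone morphogenetic protein (BMP) signalling, namely Id1, Id2, Id3, Id4, Msx1, Msx2, Smad6, Smad7, Smad1 and Bambi. They were taken by gene name from the deposited count table, where all 10 were found among 49671 genes. The RNA came from 5 mouse embryos of mixed strain background at about E6.75, of which 2 were SO+ and 3 were SO-. SO- embryos were Sox2Cre+/-; Oct4 fl/-, so that they carried a Cre transgene, a floxed Oct4 allele and a null Oct4 allele. SO+ embryos were labelled WT; Sox2Cre-/-; Oct4 fl/+, with no Cre and an intact allele beside the floxed allele. Cre and the null allele therefore differed between the groups together, and the floxed allele was common to both. The Sox2 promoter drives Cre mainly in the epiblast, and not in most of the visceral endoderm (VE). The ExE had been cut away, and each sample held the epiblast with the VE of a single embryo. In such bulk samples, fewer cells of a type and less RNA per cell cannot be told apart.

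BMP ligands bind paired serine/threonine kinase receptors, which phosphorylate Smad1 and its relatives. These enter the nucleus with Smad4 and bind DNA near target genes. The Id genes are among the most direct targets. They encode helix-loop-helix proteins without a DNA-binding region, which hold E proteins away from DNA. Msx1 and Msx2 encode homeobox repressors, whereas Smad6, Smad7 and Bambi are induced by the pathway and dampen it. In the gastrulating mouse embryo, BMP4 from the ExE acts on the proximal epiblast, where it is required for primordial germ cells and extra-embryonic mesoderm.

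Counts summed to between 27047148 and 27538119 in the SO+ embryos and to between 1117566 and 4191498 in the SO- embryos. The SO+ libraries were on average 8.67-fold larger, and the 3 counts taken as the lowest readable level corresponded to 0.111 CPM or less in SO+ and to 0.716 to 2.68 CPM in SO- embryos. CPM is the count per 1e6 counts of the library. Both SO+ libraries carried one second sequencing index and all SO- libraries another, so that depth, index and genotype cannot be told apart. Pou5f1, which encodes Oct4, measured 920.2 and 435.3 CPM in SO+ but 27.8, 12.5 and 43.7 CPM in SO-, and fell by 4.43 on the log2 scale (SE 0.33, edgeR's quasi-likelihood test with Benjamini-Hochberg adjustment, adjusted p = 3.94e-05). Among markers, the epiblast list summed to between 5602 and 6379 CPM in SO+ and between 2978 and 4230 CPM in SO- embryos. Dnmt3b alone had a mean of 3623 CPM in SO+ and 1813.5 CPM in SO-, so that the sum mostly follows this gene. Of the 10 epiblast markers, 3 had positive fold changes, and Epcam (log2 fold change 0.04) and Cdh1 (-0.09) hardly differed. Both epiblast and VE RNA were abundant in all 5 embryos. All 8 maternal decidua and blood markers together reached at most 4.88 CPM, and 5 of them were at 0 in every embryo.

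Promoter sequence from the RefSeq table (GRCm38.p6) was searched for 7 of the 10 genes, and Id1, Smad7 and Bambi were left out of the search. The 250 bases upstream of each start site were searched on both strands for letters that Smad proteins are known to bind. The Id stretches are shown because they hold the matches. The GC-rich Smad1/5 site GGCGCC was present upstream of Id2 and Id4, and the Smad box CAGAC was present at a pair of positions upstream of Id3. The matches are in capitals, and in the last Id3 stretch the capitals are the reverse complement of the Smad box.
Id2, chr12:25096306-25096335, minus strand: tcaggccccctgGGCGCCcagcgcacactg
Id4, chr13:48260956-48260985, plus strand: ctcgggttgcccGGCGCCccgccctcgcca
Id3, chr4:136143643-136143671, plus strand: tgtcctcggcgtCAGACcagcctaaggaa
Id3, chr4:136143742-136143770, plus strand: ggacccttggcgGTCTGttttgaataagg

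The Id2 match began 231 bases before the start site and the Id4 match 148 bases before it, whereas the Id3 matches began 167 and 68 bases before it. Annotated exons of the same gene covered 161 of the 250 bases for Id2, 90 for Smad1 and all 250 for Id3 and Msx2, so that these windows were not all upstream of every annotated transcript. GGCGCC was found in 9.59% of all 32851 promoter windows of the same length, and CAGAC in 42.2%. The octamer ATGCAAAT, which POU factors such as Oct4 bind, occurred in 1.60% of all windows and in none of the 7, and TATAAA occurred in 12.4% of all windows and in none of the 7. The windows of the 7 genes were rich in G and C, from 61.6% for Msx2 to 75.6% for Id4, against a median of 52.4% over all windows. They held 16 to 35 CG pairs, against a median of 6. The upstream window of Msx1, the gene with the largest fold difference below, held none of the 4 motifs.
Msx1, chr5:37824586-37824835, minus strand: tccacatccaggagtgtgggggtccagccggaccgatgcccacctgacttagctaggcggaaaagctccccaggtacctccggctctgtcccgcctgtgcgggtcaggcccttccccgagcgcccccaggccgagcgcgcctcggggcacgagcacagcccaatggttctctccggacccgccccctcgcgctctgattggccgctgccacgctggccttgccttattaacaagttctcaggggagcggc

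Of the 10 genes, 9 had enough counts to be tested and 2 passed the test, Id1 and Id2, both of which were higher in SO- embryos. Of 12067 genes tested, 2.35% passed in either direction and 1.42% were called higher in SO-. Fold differences were positive for 7 of the 9 genes and negative for Smad6 and Smad7. The median log2 fold change of the 9 was 0.70, beside -0.00187 over all genes tested. The SO- values lay wholly above the SO+ values for 6 genes (Id1, Id2, Id3, Msx1, Msx2 and Bambi), a pattern found for 13.9% of all genes tested. Smad7 lay wholly below, as did 15.6% of all genes tested, and Smad1 and Smad6 overlapped. The plots of values by embryo and of fold changes show these differences side by side.

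**Figure D1:**
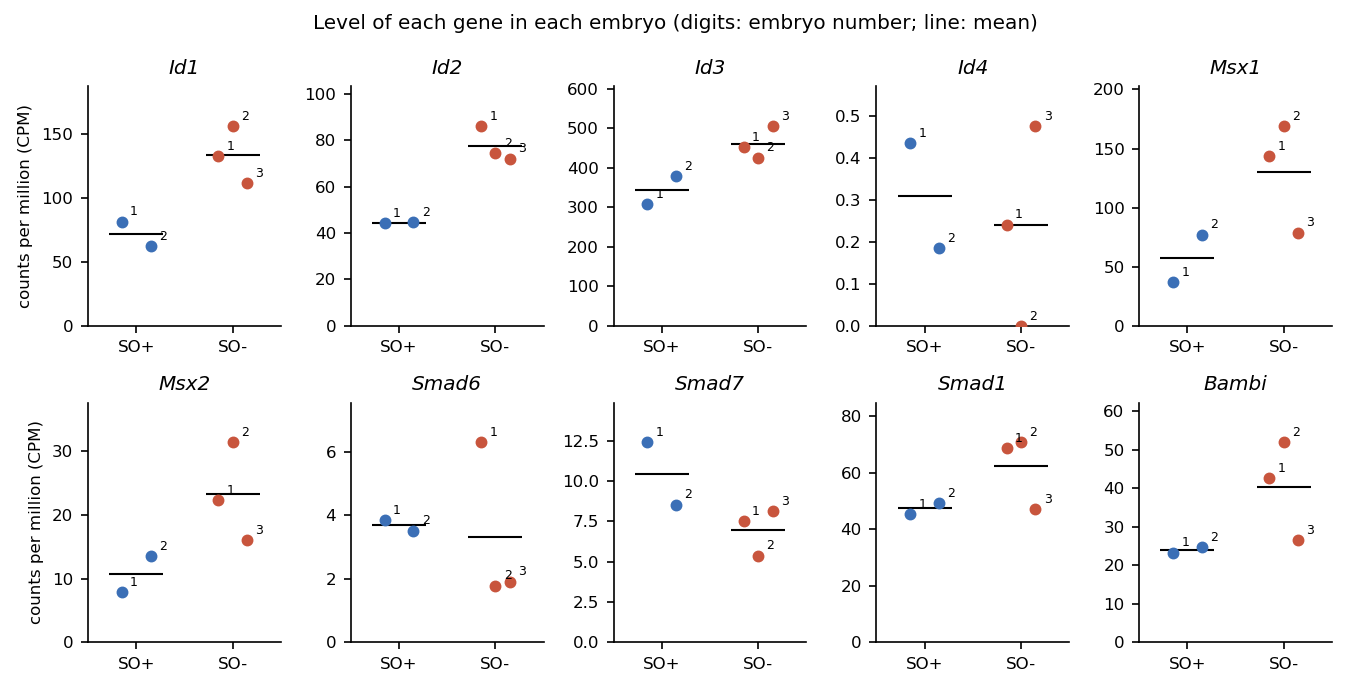
Level of each of the 10 genes in CPM (vertical axis, from 0) in the 2 SO+ (blue) and 3 SO- (red) embryos, with embryo numbers beside the points and a line at each group mean. The SO- points lie above the SO+ points for Id1, Id2, Id3, Msx1, Msx2 and Bambi, below them for Smad7, and among them for Id4, Smad6 and Smad1.

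Id1 (ENSMUSG00000042745, chr2:152736251-152737410, plus strand, GRCm38), the Id gene most often used as a readout of BMP signalling, had 81.7 and 62.5 CPM in SO+ embryos 1 and 2. It had 132.8, 156.6 and 111.7 CPM in SO- embryos 1, 2 and 3. The lowest SO- value was 1.37-fold above the highest SO+ value. The means were 72.1 ± 13.6 CPM (SD, n = 2) and 133.7 ± 22.5 CPM (SD, n = 3). Id1 rose by 0.88 on the log2 scale (SE 0.16, 95% interval 0.52 to 1.23), a 1.83-fold difference with an adjusted p of 0.0125. The call was lost without SO- embryo 1 or 2, when the adjusted p was 0.159 or 0.177 at log2 fold changes of 0.86 and 0.77. Calls over all genes also fell then, from 283 to 46 and 35, so that this loss was not particular to Id1. The Id1 call was also lost with limma-voom, at an adjusted p of 0.0827.

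Id2 (ENSMUSG00000020644, chr12:25093799-25097140, minus strand) had the closest SO+ values of the 10 genes, at 44.1 and 44.6 CPM. SO- embryos 1, 2 and 3 had 86.1, 74.3 and 72.1 CPM. The gap between the groups was the widest of the members, with the lowest SO- embryo 1.62-fold above the highest SO+ embryo. The means were 44.3 ± 0.305 CPM (SD, n = 2) and 77.5 ± 7.55 CPM (SD, n = 3). Id2 rose by 0.82 on the log2 scale (SE 0.15, 95% interval 0.49 to 1.14), a 1.76-fold difference (edgeR's quasi-likelihood test, adjusted p = 0.0120). As for Id1, the call was lost without SO- embryo 1 (log2 fold change 0.71, adjusted p = 0.177) and without SO- embryo 2 (0.84, adjusted p = 0.115).

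Id3 (ENSMUSG00000007872, chr4:136143497-136145755, plus strand) was the most abundant of the 10 genes. Its CPM was 307.6 and 378.9 in SO+ and 453.2, 425.9 and 506.3 in SO-. The groups did not overlap, but SO- embryo 2 lay closer to SO+ embryo 2 than the SO+ values lay to each other. The log2 fold change was 0.44 (SE 0.12, 95% interval 0.18 to 0.70) and did not pass the test (adjusted p = 0.0883). DESeq2, given the same counts, called it at an adjusted p of 0.0389.

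Id4 (ENSMUSG00000021379, chr13:48261228-48266026, plus strand) was scarce. It had 12 and 5 counts in the SO+ embryos and 1, 0 and 2 counts in the SO- embryos, the last all at or under 3 counts, and it was left out of the test by the expression filter. The 0 in SO- embryo 2 allows a level of up to 2.68 CPM, more than any level measured, so that no difference in Id4 was detectable at this depth. Id4 was also the member whose exons overlap other genes, on the opposite strand. It shares 82 exon bases with A330033J07Rik, which had 0 counts in every embryo, and 171 with Gm49291.

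The 4 Id genes together summed to 433.8 and 486.1 CPM in SO+ and to 672.4, 656.8 and 690.4 CPM in SO-. As a ratio of highest to lowest, the sums varied less among the SO- embryos than any single Id gene did, with the SO- embryo lowest in Id1 (embryo 3) being the highest in Id3. Divided by exon length, Id3 made up 66.0% and 74.6% of the Id level in the SO+ embryos and 62.8%, 59.0% and 69.2% in the SO- embryos. Id1 made up 27.0% and 19.0% against 28.4%, 33.5% and 23.6%, and Id2 between 6.44% and 8.77%. The shares overlapped between genotypes for Id1 and Id3, and for Id2 the SO- shares (7.23% and above) lay over the SO+ shares (6.95% and below). Because a ratio within an embryo does not depend on library scaling, the share of Id1 in the counts of Id1 and Id3 was also compared. It was 21.0% (exact binomial 95% interval 20.2 to 21.8) and 14.2% (13.5 to 14.8) in the SO+ embryos. In the SO- embryos it was 22.7% (21.0 to 24.4), 26.9% (23.5 to 30.5) and 18.1% (16.6 to 19.6). These intervals cover counting error only. The means were 17.6 ± 4.83% (SD, n = 2) and 22.5 ± 4.41% (SD, n = 3), and the difference of 4.97 percentage points had a p of 0.4 in an exact two-sided permutation test, where 2 embryos against 3 allow no p below 0.1. It was 8.38 points without SO+ embryo 1, 1.55 without SO+ embryo 2 and 2.79 without SO- embryo 2.

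**Figure D2:**
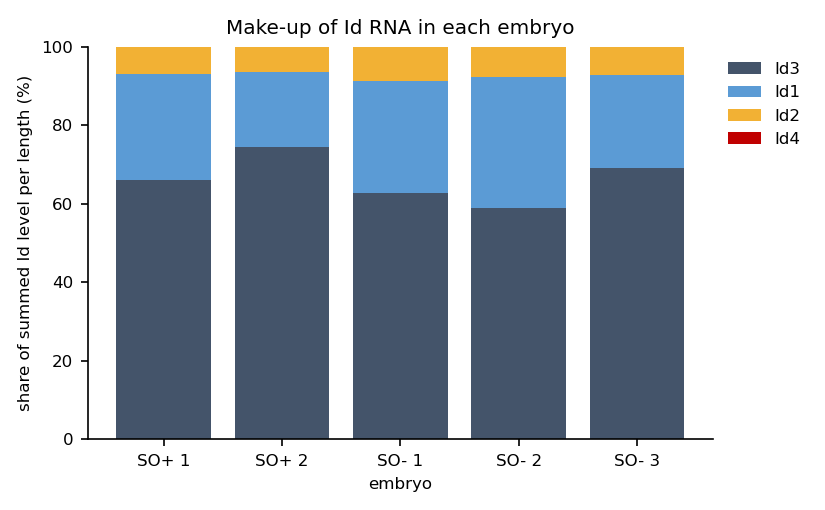
Share of each Id gene in the summed Id level per exon length (vertical axis, percent) in each embryo, as stacked bars from 0 to 100. Id3 is the largest share in all 5 embryos, from 59.0% in SO- embryo 2 to 74.6% in SO+ embryo 2, and Id4 is too small to see.

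Msx1 (ENSMUSG00000048450, chr5:37820485-37824583, minus strand) had the largest fold difference of the 10 genes and the widest spread among those above 20 CPM. SO+ embryos 1 and 2 had 36.9 and 77.3 CPM, against 143.7, 169.1 and 79.0 CPM in SO- embryos 1, 2 and 3. SO- embryo 3 was barely above SO+ embryo 2, while embryos of one genotype differed by 2.09-fold in SO+ and 2.14-fold in SO-. The log2 fold change was 1.16 (SE 0.31, 95% interval 0.49 to 1.83) and did not pass the test (adjusted p = 0.0787). It passed without SO+ embryo 2 (log2 fold change 1.79, adjusted p = 1.65e-05) and without SO- embryo 3 (1.43, adjusted p = 0.0269), as it did with no filter on low counts (adjusted p = 0.0492) and with thinned SO+ libraries (adjusted p = 0.0486). Without SO+ embryo 1 it was 0.71 (adjusted p = 0.143), without SO- embryo 1 or 2 the adjusted p was 0.445 or 0.454, and with a robust estimate of spread it was 0.490.

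Msx2 (ENSMUSG00000021469, chr13:53466884-53473074, minus strand) placed the embryos in the same order as Msx1 at a lower level. The values were 7.88 and 13.6 CPM in SO+ against 22.3, 31.3 and 16.0 CPM in SO-, without overlap. Its log2 fold change of 1.05 (SE 0.34, 95% interval 0.32 to 1.78) did not pass the test (adjusted p = 0.152), and it ranged from 0.70 (adjusted p = 0.580) without SO+ embryo 1 to 1.49 (adjusted p = 0.0221) without SO+ embryo 2. Msx1 made up 82.4% and 85.1% of the counts of both Msx genes in the SO+ embryos and 86.6%, 84.4% and 83.2% in the SO- embryos, a ratio examined after the values were seen.

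Smad6 and Smad7 encode the inhibitory Smads, which block the receptors or their substrates, and neither was higher in all SO- embryos. Smad6 (ENSMUSG00000036867, chr9:63953076-64022059, minus strand) had 3.85 and 3.51 CPM in SO+ and 6.29, 1.79 and 1.91 CPM in SO-, the SO- values resting on 26, 2 and 8 counts. SO- embryo 1 was the highest and the other SO- embryos the lowest of the 5. The 2 counts of SO- embryo 2 have an exact Poisson 95% interval of 0.217 to 6.46 CPM, which holds both SO+ values. The log2 fold change was -0.02 (SE 0.60, 95% interval -1.32 to 1.27, adjusted p = 0.996), so that changes of more than 2-fold in either direction lay within the interval. Its sign depended on single embryos, from -0.97 without SO- embryo 1 to 0.33 without SO- embryo 3.

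Smad7 (ENSMUSG00000025880, chr18:75367529-75395935, plus strand) was the 1 member that lay lower in every SO- embryo. Its CPM was 12.4 and 8.54 in SO+ and 7.50, 5.37 and 8.11 in SO-, the lowest SO- value resting on 6 counts. The log2 fold change was -0.52 (SE 0.36, 95% interval -1.30 to 0.27) and did not pass the test (adjusted p = 0.609).

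Bambi (ENSMUSG00000024232, chr18:3507923-3516404, plus strand), a decoy receptor without a kinase, was at 23.3 and 24.7 CPM in SO+ and at 42.6, 51.9 and 26.5 CPM in SO-. The SO+ embryos were close together, and SO- embryo 3 lay 1.07-fold above the higher of them. The log2 fold change was 0.70 (SE 0.25, 95% interval 0.17 to 1.24) and did not pass the test (adjusted p = 0.202). Its processed pseudogene Bambi-ps1 had at most 1 count in any embryo.

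Smad1 (ENSMUSG00000031681, chr8:79338395-79399518, minus strand), the receptor-regulated Smad that carries the signal, was at 45.4 and 49.4 CPM in SO+ and at 68.7, 70.7 and 47.2 CPM in SO-. SO- embryos 1 and 2 were the highest, while SO- embryo 3 lay between the SO+ embryos. The log2 fold change was 0.38 (SE 0.18, 95% interval -0.02 to 0.78) and did not pass the test (adjusted p = 0.405).

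**Figure D3:**
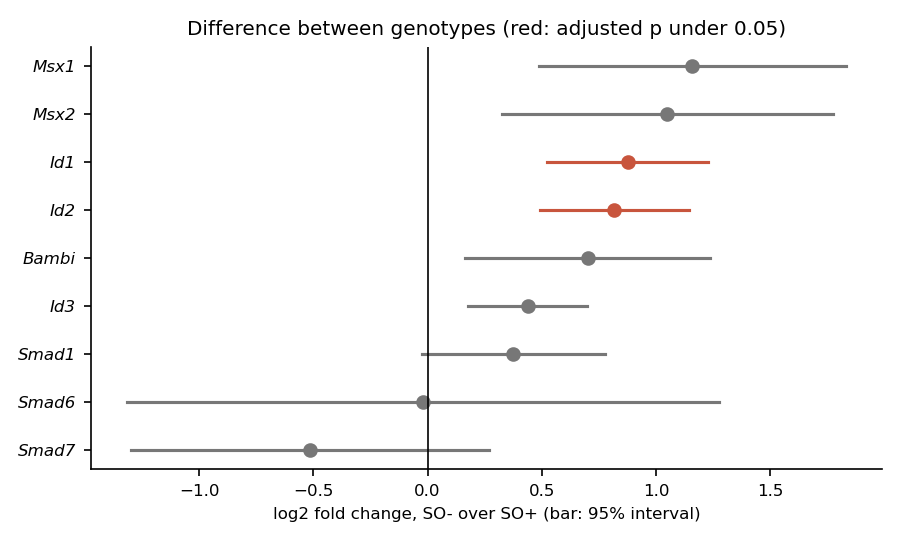
Log2 fold change of SO- over SO+ (horizontal axis) for the 9 genes tested, with bars for the 95% interval and red for an adjusted p under 0.05. Id1 and Id2 are the genes in red, Msx1 has the largest estimate at 1.16 with a wider bar, and the bars of Smad1, Smad6 and Smad7 cross 0.

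The SO- embryos were not alike. SO- embryo 3 was the lowest SO- embryo in Id1, Id2, Msx1, Msx2, Smad1 and Bambi, and the highest in Id3 and Smad7. Msx1, Msx2 and Bambi gave all 5 embryos the same order, with SO- embryo 2 first, then SO- embryos 1 and 3, then SO+ embryos 2 and 1. VE markers also varied between the SO- embryos, with a summed level of 4818, 4808 and 3020 CPM in SO- embryos 1, 2 and 3 and 3136 and 3524 CPM in the SO+ embryos. Of the 12 VE markers tested, 10 were higher in SO- at any p, beside 5997 of 12067 over all genes tested. With all 5 embryos 0 passed edgeR's test (6 at an unadjusted p under 0.05, 0 with DESeq2 or limma-voom), whereas 5 passed without SO- embryo 3 and 4 without SO+ embryo 2. ExE markers summed to at most 17.9 CPM in SO+ and 25.1 CPM in SO- embryos, with 0 of 3 tested passing and 0 at an unadjusted p under 0.05 (0 with DESeq2 or limma-voom). The part of VE or remaining ExE in the levels of the 10 genes was not tested.

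Extra-embryonic mesoderm markers separated the genotypes further. The 9 markers summed to 16.8 and 21.1 CPM in the SO+ embryos and to 98.0, 97.5 and 48.4 CPM in the SO- embryos. Of the 6 tested, 3 rose, namely Hand1, Pmp22 (log2 fold change 3.25, edgeR adjusted p = 0.00159) and Etv2 (2.09, adjusted p = 0.0348). Over all genes tested, 1.42% were called higher in SO-. Hand1, Pmp22 and Etv2 passed the expression filter only through the SO- embryos, so that a fall in them could hardly have been tested. Of these 3 calls 0 remained without SO- embryo 1 or without SO- embryo 2, and SO- embryo 3 was again the lowest SO- embryo. The list was not uniform, since Lmo2 overlapped between genotypes (log2 fold change 0.38, edgeR adjusted p = 0.893). Ahnak, not tested, had 1.96 and 1.33 CPM in SO+ and lay under the lowest readable level in every SO- embryo. Primitive streak and nascent mesoderm markers overlapped, with 519 and 800 CPM in SO+ and 668, 732 and 566 CPM in SO- embryos, and 0 of 7 tested passed edgeR's test (1 at an unadjusted p under 0.05, 0 with DESeq2 or limma-voom), whereas 2 passed without SO+ embryo 1 and 1 without SO+ embryo 2. In the epiblast list, 4 of 10 markers fell (Utf1, Dnmt3b, L1td1 and Slc7a3). The list had 2 calls without SO- embryo 1 and 3 without SO- embryo 2. The median log2 fold change of the list was -0.53. The markers that did not pass edgeR's test went in both directions. Sox2 was higher in every SO- embryo (log2 fold change 0.56, adjusted p = 0.514), and Fgf5 had a log2 fold change of 0.38 (adjusted p = 0.274). Otx2 was lower in every SO- embryo (log2 fold change -0.23). Pou3f1 had a log2 fold change of -0.84, with 88.1 and 61.2 CPM in SO+ and 22.7, 25.1 and 70.1 CPM in SO- embryos. The part of these cell types in the result for the 10 genes was not tested.

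Levels of different genes were compared per kb of annotated exon, as CPM per kb. In the SO+ embryos Id3 came first, with a mean of 191.6 CPM per kb, followed by Id1 with 62.1. Msx1 (18.4) and Id2 (18.2) followed, and their ranges overlapped. Smad1 (7.57), Bambi (4.73), Msx2 (3.27), Smad7 (2.31), Smad6 (1.148) and Id4 (0.0806) came next, of which only Msx2 and Smad7 overlapped as neighbours. The SO- embryos had the same order of means, from Id3 at 257.9 and Id1 at 115.2 CPM per kb to Smad6 at 1.04 and Id4 at 0.0623. In SO-, the neighbours Msx1 and Id2, Smad1 and Bambi, Bambi and Msx2, and Smad7 and Smad6 overlapped.

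**Figure D4:**
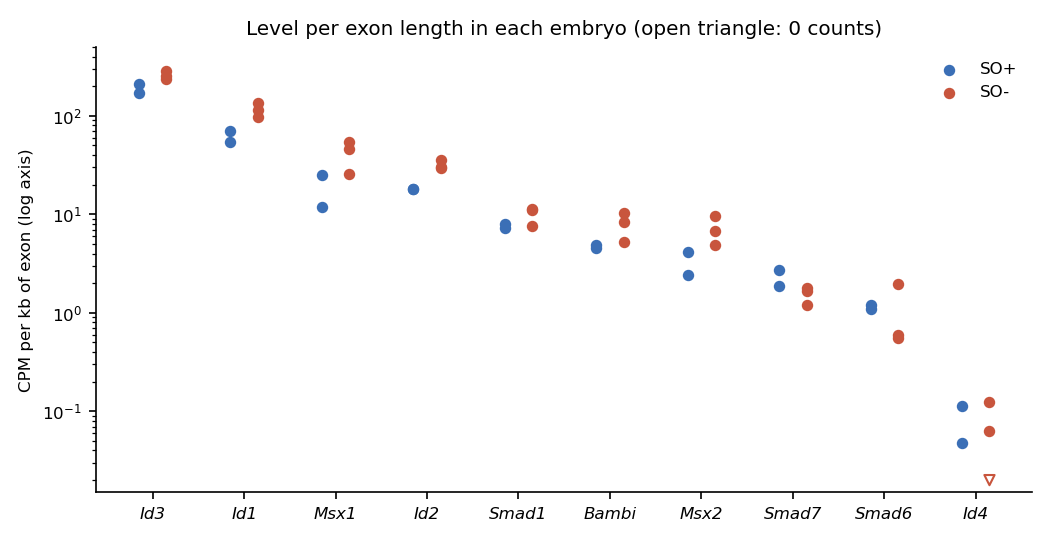
Level of the 10 genes in CPM per kb of exon (vertical log axis) in each SO+ (blue) and SO- (red) embryo, ordered by the SO+ mean, with an open triangle for the embryo with 0 counts. The order runs from Id3, with means of 191.6 in SO+ and 257.9 in SO-, down to Id4, with 0.0806 and 0.0623.

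The rest of the pathway was described from 6 lists that together held 52 genes other than the 10. Of the 36 tested, 5 rose and 2 fell, and their median log2 fold change was 0.20. Over all genes tested, 2.35% passed in either direction and 1.42% were called higher in SO-. Among BMP ligands, 1 of 5 tested passed. Bmp7, made in VE and mesoderm, was at 4.72 and 17.0 CPM in SO+ and at 65.5, 76.1 and 56.5 CPM in SO-, and rose by 2.59 on the log2 scale (SE 0.40, edgeR's quasi-likelihood test, adjusted p = 0.00427). Its log2 fold change was 1.93 without SO+ embryo 1 and 3.78 without SO+ embryo 2, and the call was lost with a robust estimate of spread (adjusted p = 0.191). Bmp4, the ligand of the ExE and the extra-embryonic mesoderm, was at 4.43 and 3.85 CPM in SO+ and at 10.6, 16.1 and 5.25 CPM in SO-, and did not pass (log2 fold change 1.27, adjusted p = 0.242). Bmp2 had a log2 fold change of 0.65 (adjusted p = 0.366).

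Among the receptors and their co-receptors, 0 of 8 tested passed edgeR's test, with 4 at an unadjusted p under 0.05 and 0 called by DESeq2 or limma-voom. The most abundant were Bmpr1a (log2 fold change 0.14), Acvr2b (-0.02) and Acvr2a (0.56, edgeR adjusted p = 0.237). Of the Smad partners, 0 of 3 passed edgeR's test (0 at an unadjusted p under 0.05, 0 with DESeq2 or limma-voom). Smad5, the close relative of Smad1, had a log2 fold change of 0.20 (adjusted p = 0.700), and Smad4 of -0.14 (adjusted p = 0.828).

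Among the secreted antagonists, 3 of 6 tested passed, in opposite directions. Fst, which encodes follistatin, an inhibitor of activin and of several BMPs, was at 100.1 and 91.2 CPM in SO+ and at 27.1, 13.4 and 22.4 CPM in SO-, and fell by 2.08 on the log2 scale (adjusted p = 2.12e-04). Cer1, a VE antagonist of Nodal and BMP, had 78.3 and 82.4 against 138.8, 128.9 and 118.6 CPM and rose by 0.69 (adjusted p = 0.0126). Bmper, a modulator that binds BMPs, rose by 1.67 (adjusted p = 0.0205). Of the intracellular brakes, 1 of 8 passed. Skil, a corepressor of Smads, had 112.4 and 104.7 against 75.7, 55.5 and 69.4 CPM and fell by 0.66 on the log2 scale (adjusted p = 0.0341).

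Among the 14 other genes known to respond to BMP, 2 of 6 tested passed, and all 6 had positive fold changes, with a median of 1.43. Of these, Hand1 and Gata3 (0.73 and 1.18 CPM in SO+) passed the expression filter only through the SO- embryos. Their signs and the list median were therefore partly set by the filter. Hand1, a factor of extra-embryonic mesoderm that also stands in that marker list, was at 1.09 and 2.74 CPM in SO+ and at 13.5, 24.2 and 11.9 CPM in SO-, and rose by 3.04 (SE 0.52, adjusted p = 0.00754), with 2.499 without SO+ embryo 1 and 3.83 without SO+ embryo 2. Prdm1, required for primordial germ cells and also expressed in VE, had 6.06 and 7.84 against 38.5, 43.8 and 21.2 CPM and rose by 2.27 (SE 0.31, adjusted p = 0.00201). Gata3 did not pass (log2 fold change 2.39, adjusted p = 0.148). Each of the 7 calls in these lists except Fst was lost without SO- embryo 1 and without SO- embryo 2, when edgeR called 46 and 35 genes in all. Cer1 was also lost without SO+ embryo 1, Bmper with limma-voom, and Skil with limma-voom and without any 1 of the embryos other than SO+ embryo 2.

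**Figure D5:**
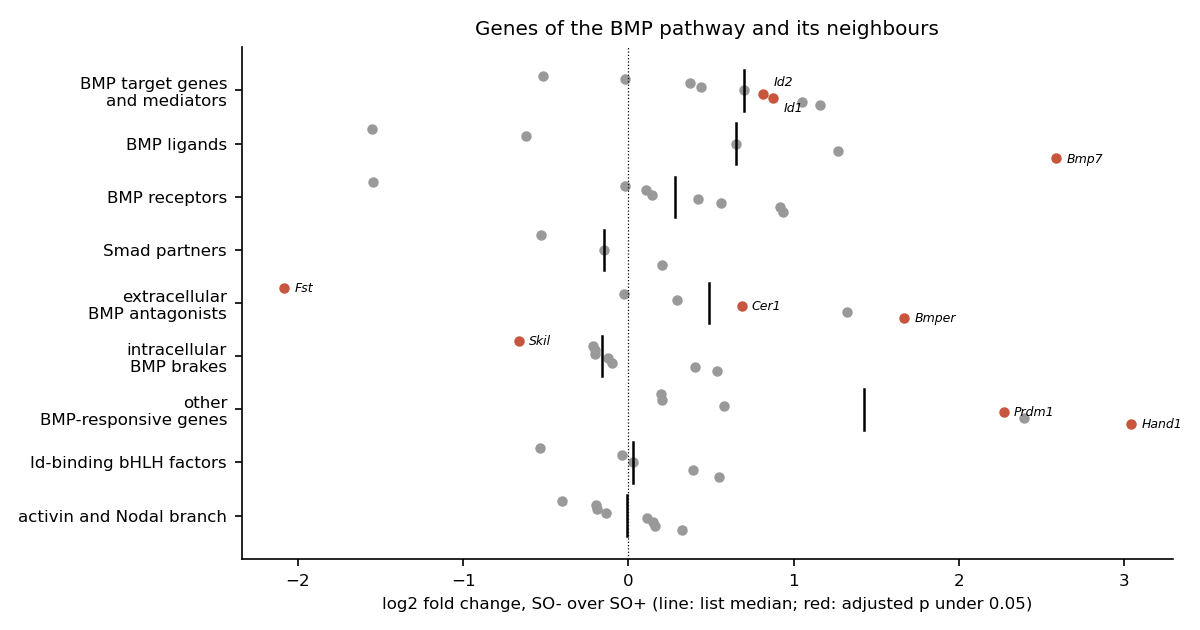
Log2 fold change of SO- over SO+ (horizontal axis) for tested genes of each list (rows), with a line at each list's median and red for an adjusted p under 0.05. The 9 tested of the 10 genes have a median of 0.70, the other BMP-responsive genes of 1.43 and the activin and Nodal branch of -0.01. Hand1 and Gata3, among the other BMP-responsive genes, passed the expression filter only through the SO- embryos. Fst is the point farthest to the left at -2.08.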

How the data were processed

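Each embryo's epiblast and VE RNA was amplified with SmartSeq2, which adds no molecular identifiers. After adapter removal (cutadapt) and alignment to GRCm38/mm10 (STAR), the authors counted reads per Ensembl gene (HTSeq-count) and deposited these raw counts. Use of strand and handling of duplicates are not given in the sources used here. Groups came from the genotype labels and embryos were separate samples. Counts were tested in R 4.3.3 by the quasi-likelihood F test of edgeR 4.0.16, with filterByExpr, TMM factors, no term but genotype and Benjamini-Hochberg adjustment over all genes tested (threshold 0.05), after the test had been checked on simulated data. The SE was derived from the log2 fold change and its F statistic. CPM used library totals without TMM. Exon lengths and coordinates came from GENCODE M21 on the same build, and promoters from RefSeq. The members and lists were chosen with earlier results of these data known. Named genes were all 10 members, Pou5f1, every pathway gene past the threshold and otherwise at most the 3 most abundant of a list. Gata3, Pmp22, Etv2, Lmo2, Ahnak and the named epiblast markers were named after their values were seen. Proteins were not used here. Alternatives were DESeq2 1.42.0 (the study's test), limma-voom (limma 3.58.1), other scaling, filters and spread, a replicate block, thinning of SO+ libraries to the average SO- depth (10 draws), other lengths and each embryo left out.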

Additional observations from a re-analysis of the deposited data

How the results depend on the processing

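Where edgeR called 283 genes, limma-voom called 91 and the replicate block 929, and leaving out 1 embryo gave 35 to 573 (180 without SO+ embryo 1, 573 without SO+ embryo 2, 46 without SO- embryo 1, 35 without SO- embryo 2). Against 2 members called, limma-voom called 1 (Id2), the replicate block called 7, and leaving out 1 embryo gave 0 (without SO- embryo 1 or 2) to 5 (without SO+ embryo 2, with Id3, Msx1 and Msx2 added). Against 7 other pathway genes called, the replicate block called 11, and leaving out 1 embryo gave 1 (without SO- embryo 1 or 2) to 8. The labels give the embryos replicate numbers but no pairing, and same-numbered embryos are different animals. Their deviations from the genotype means correlated at 0.00770 and 0.115. With 2 SO+ embryos, the SO+ deviations mirror each other, so that these correlations cannot decide whether embryos were paired. Smad6 turned positive in the replicate block (0.18) and with SO+ libraries thinned (0.060), and ranged from -0.97 to 0.33 with 1 embryo left out. The other 8 members tested kept their sign in all 15 alternatives, from 0.69 to 1.07 for Id1, 0.71 to 0.87 for Id2, 0.29 to 0.60 for Id3 and 0.71 to 1.79 for Msx1. Id1 passed in 12 of the 15 and Id2 in 13. Other scaling factors called 275 to 288 genes, and Id1 and Id2 with each. The Id1 share kept its direction in 7 of 7 alternatives, at differences from 1.55 to 8.38 points with 1 embryo left out. By longest transcript, Bambi and Msx2 changed places in SO-. Except where the embryo left out shows it, the cause was not tested. Depth limits Id4, Smad6 and Smad7, whose SO- counts were 34 or fewer.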

Other observations

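Id proteins act by binding E proteins and some other helix-loop-helix factors, whose genes gave no call. Of 7 such genes, 5 were tested and 0 passed edgeR's quasi-likelihood test, with 2 at an unadjusted p under 0.05 and 0 called by DESeq2 or limma-voom, and 1 passed without SO+ embryo 2. Tcf3, the most abundant, was at 235.9 and 226.9 CPM in SO+ and at 216.2, 225.5 and 262.4 CPM in SO- (log2 fold change 0.03, 95% interval -0.22 to 0.28). Hes1 had 61.0 and 70.5 against 96.5, 104.7 and 89.0 CPM, a log2 fold change of 0.55 with an adjusted p of 0.0668, and Tcf12 had a log2 fold change of 0.39 (adjusted p = 0.298).

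The activin and Nodal branch uses other Smads. Of its 8 genes tested, 0 passed edgeR's test, 1 had an unadjusted p under 0.05, DESeq2 called 1, limma-voom called 0, 2 passed without SO+ embryo 2, and 4 were higher in SO- at any p. Tdgf1, the Nodal co-receptor, was at 471.5 and 414.5 CPM in SO+ and at 353.8, 323.0 and 322.1 CPM in SO- (log2 fold change -0.40, adjusted p = 0.0669). Tgif1 and Foxh1 had log2 fold changes of -0.14 and -0.19.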
